A study of Bos taurus with 8 samples.

Results

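The transcripts of the glycolysis enzymes were compared between bovine 2-cell embryos that the labels name fast, taken at 29.5 hours post-fertilization (hpf), and slow ones, taken at 46 hpf. The members were 10 genes chosen by name, GPI, PFKP, ALDOA, TPI1, GAPDH, PGK1, PGAM1, ENO1, LDHA and LDHB, with all array probes that the platform annotation gives to those symbols. There were 12 such probes for 9 of the genes, out of 43794 probes and 15212 gene symbols on the array. GAPDH was the symbol of no probe in the annotation used and was not analysed here. Both groups came from slaughterhouse Holstein cow oocytes matured in vitro, fertilized with 1 mixture of semen from several bulls, and cultured under reduced oxygen. RNA of both groups was amplified and hybridised together on 8 arrays with 2 colours, with the 29.5 hpf RNA in Cy5 on 4 arrays and in Cy3 on the other 4. By their labels the arrays form 4 biological replicates with a dye swap each; how many embryos went into a sample is not stated in the labels. Collection time and cleavage speed cannot be told apart here, since each group had 1 of each, and neither can fewer cells of a type and less RNA per cell.

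Glycolysis splits glucose into pyruvate in the cytosol, yielding ATP and NADH, and lactate dehydrogenase interconverts pyruvate and lactate while recycling NAD+. In cleaving mammalian embryos pyruvate and lactate are the main fuels and glucose use is low, rising toward the blastocyst stage. At the 2-cell stage most bovine mRNA is still the stock stored in the oocyte, before the major activation of the embryonic genome.

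For no glycolysis enzyme with a tested probe did the difference between 29.5 hpf and 46 hpf pass the test after adjustment. Of the 11 member probes bright enough to test, 0 passed limma's test after Benjamini-Hochberg adjustment over 32989 probes at a threshold of 0.05, where 381 probes passed, or 1.15% of those tested. LDHB, at a log2 ratio of -0.25, was the 1 member probe whose unadjusted limma p-value was under 0.05, a level that 16.4% of all tested probes reached. Its adjusted p was 0.293 (limma). Ratios are given on the log2 scale as 29.5 hpf over 46 hpf, with negative values for less signal at 29.5 hpf. The member means lay between -0.25 for LDHB and 0.17 for TPI1, with 8 probes below 0 and 3 above. Their median was -0.082, against -0.005 over all tested probes, and their median size without sign was 0.086, against 0.094. In 0 of the 11 probes did all 4 labelled replicates share 1 sign, as they did in 25.5% of tested probes.

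With the labelled numbers and loess, the 95% intervals of the 11 ratios (limma) ran from a lowest bound of -0.50 to a highest bound of 0.45, or 0.707-fold to 1.36-fold, and 10 of them held 0. That of LDHB ended just below 0. Other settings gave values outside these bounds, as described at the end: the mean of LDHB was -0.56 with median centring. For comparison, the smallest ratio that passed among all probes had a size of 0.42. The spread between replicates had a median SD of 0.229 over the member probes and 0.181 over all tested probes.

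**Figure D1:**
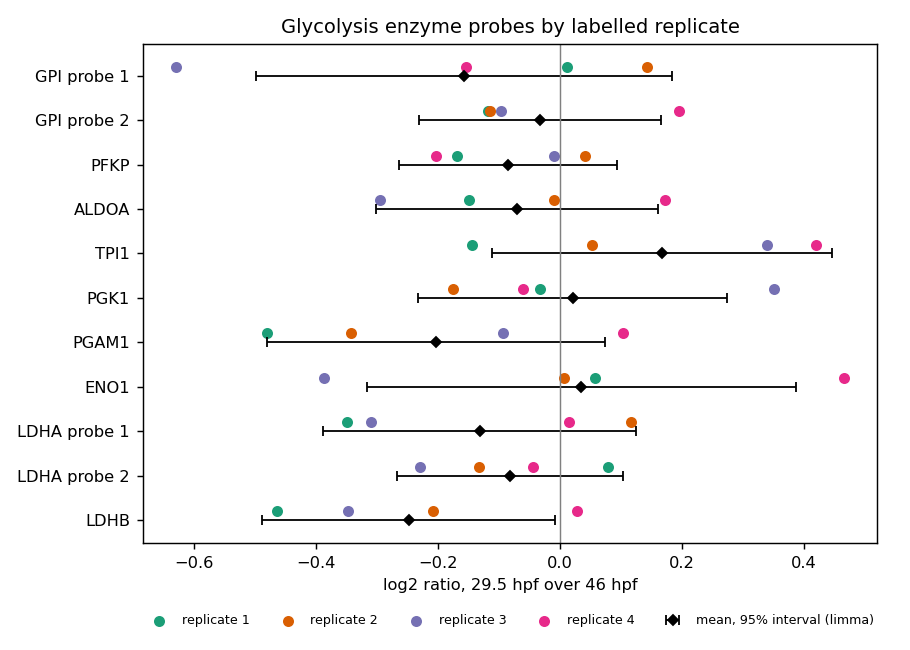
Log2 ratio of 29.5 hpf over 46 hpf (x axis) of the 11 tested glycolysis enzyme probes (rows). Coloured points are the 4 labelled replicates, each the mean of 2 dye-swapped arrays, and black diamonds with bars are the means with 95% intervals from limma. Every row has points on both sides of 0, and the bar of LDHB alone ends short of it.

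The first steps prepare the sugar for cleavage. GPI, the isomerase that turns glucose 6-phosphate into fructose 6-phosphate, had 2 probes. Its brighter probe (EMBV3_15110) gave 0.01, 0.14, -0.63 and -0.15 in replicates 1 to 4, a mean of -0.16 ± 0.34 (SD, n = 4; limma adjusted p = 0.656). Replicate 3 stood lowest, and the other 3 lay on both sides of 0. The other GPI probe (EMBV3_16007) gave -0.12, -0.11, -0.10 and 0.20, a mean of -0.03 ± 0.15 (SD, n = 4; limma adjusted p = 0.889). The probes had the same sign on 4 of 8 arrays, and the low value of replicate 3 in the brighter probe had no counterpart in the other.

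PFKP, the platelet-type subunit of phosphofructokinase, catalyses the committed step of the pathway. Its probe (EMBV3_33976) gave -0.17, 0.04, -0.01 and -0.20, a mean of -0.09 ± 0.12 (SD, n = 4; limma adjusted p = 0.643). Its signal was the least often measurable of the tested members, above the limit of the negative control spots on 4 of 8 arrays at 29.5 hpf and on 7 of 8 at 46 hpf. ALDOA, the aldolase that cleaves the doubly phosphorylated sugar, gave -0.15, -0.01, -0.30 and 0.17 (EMBV3_37035), a mean of -0.07 ± 0.20 (SD, n = 4; limma adjusted p = 0.780). Values of both enzymes lay on both sides of 0.

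TPI1, which equilibrates the triose phosphates made by aldolase, had the highest mean of the members. Its replicates were at -0.15, 0.05, 0.34 and 0.42 (EMBV3_10091), a mean of 0.17 ± 0.26 (SD, n = 4; limma adjusted p = 0.558), so that 3 of 4 were above 0. PGK1, the kinase of the first ATP-yielding step, gave -0.03, -0.17, 0.35 and -0.06 (EMBV3_21811), a mean of 0.02 ± 0.23 (SD, n = 4; limma adjusted p = 0.950). Its mean was above 0 through replicate 3 and was -0.09 without it.

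PGAM1, the phosphoglycerate mutase, gave -0.48, -0.34, -0.09 and 0.10 (EMBV3_37164), a mean of -0.20 ± 0.26 (SD, n = 4; limma adjusted p = 0.460). It was below 0 in 3 of 4 replicates and on 7 of 8 arrays. ENO1, the enolase that forms phosphoenolpyruvate, gave 0.06, 0.01, -0.39 and 0.47 in its tested probe (EMBV3_38435), a mean of 0.04 ± 0.35 (SD, n = 4; limma adjusted p = 0.939). Replicates 3 and 4 stood far apart in opposite directions, and without replicate 4 the mean was -0.11. The other ENO1 probe (EMBV3_34877) was above the negative control limit on 0 of 8 arrays at 29.5 hpf and 1 of 8 at 46 hpf, and was not tested.

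The lactate dehydrogenase subunits close the pathway. LDHA, the subunit typical of muscle, had 2 probes, and LDHB is the subunit typical of heart. The first LDHA probe (EMBV3_00051) gave -0.35, 0.12, -0.31 and 0.01, a mean of -0.13 ± 0.23 (SD, n = 4; limma adjusted p = 0.619). The second (EMBV3_37602) gave 0.08, -0.13, -0.23 and -0.05, a mean of -0.08 ± 0.13 (SD, n = 4; limma adjusted p = 0.669). LDHB (EMBV3_15985) gave -0.46, -0.21, -0.35 and 0.03, a mean of -0.25 ± 0.21 (SD, n = 4). LDHB was below 0 in 3 of 4 replicates and on 6 of 8 arrays, with replicate 4 near 0. The LDHA probes had the same sign on 8 of 8 arrays, and LDHB had the sign of either LDHA probe on 7 of 8. These comparisons share the arrays, and cross-hybridisation between the related subunits was not tested.

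Raw spot signals show how well each member was measured. LDHA was at 21140 to 37420 scanner units over both probes, groups and all arrays, which was 39.5% to 91.3% of the signal of the brightest probe on the same array and channel. The other members reached at most 27.0%. Whether the LDHA ratios were compressed at the bright end was not tested. LDHB ranged from 1515 to 2985 units at 29.5 hpf and from 1863 to 3091 at 46 hpf, and PGAM1 from 5584 to 9209 and from 6799 to 10940. The ranges of both groups overlapped in each case. They pool arrays and dyes without normalization and leave out the pairing of the groups on an array. They therefore do not compare the groups. Of the 11 tested probes, 8 were above the negative control limit in both groups on all 8 arrays. The exceptions were the second GPI probe, PFKP and ENO1. The median raw signal of all probes was 152.1 to 343.8 in Cy5 and 128.5 to 195.7 in Cy3, and the number of arrays limits the precision.

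The dye orientation was tested on the single arrays, without averaging those of the same labelled number and without a replicate block. By their labels such arrays are dye swaps of the same replicate. They are thus not independent, and the dye values describe the arrays. The difference between the 4 arrays with 29.5 hpf in Cy5 and the 4 with 46 hpf in Cy5 passed limma's test for 0 of 11 member probes and 0.0455% of tested probes. It was largest for PGAM1, at -0.05 ± 0.24 (SD, n = 4) against -0.36 ± 0.34 (SD, n = 4; limma adjusted p = 0.962), followed by the second LDHA probe at 0.06 ± 0.57 (SD, n = 4) against -0.22 ± 0.40 (SD, n = 4; limma adjusted p = 0.997).

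The sign of the member values varied between arrays. On the array numbered 2 with 29.5 hpf in Cy5 and on the array numbered 1 with 46 hpf in Cy5, 10 of 11 members were below 0, with medians of -0.17 and -0.33. On the array numbered 2 with 46 hpf in Cy5 and on the array numbered 4 with 29.5 hpf in Cy5, 8 of 11 were above 0, with medians of 0.10 and 0.17. TPI1 shows the pattern at its widest. On the arrays with 29.5 hpf in Cy5 it was at 0.66, -0.23, 0.06 and 0.69 for numbers 1 to 4. On those with 46 hpf in Cy5 it was at -0.95, 0.33, 0.62 and 0.15. The 2 arrays numbered 1 thus gave TPI1 opposite signs, as did the 2 numbered 2, while numbers 3 and 4 gave 1 sign each.

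Over the members, agreement in sign was low for numbers 1 and 2, high for number 3 and in between for number 4. The 2 arrays of a labelled number had the same sign in 3 of 11 probes for number 1, 4 for number 2, 10 for number 3 and 6 for number 4, while over all tested probes the shares were 48.9%, 49.1%, 66.9% and 68.9%. When numbers 1 and 2 were swapped among the arrays carrying 46 hpf in Cy5, a pairing already known from earlier results of these data, the counts for the new pairs became 8 and 9 of 11, and the shares over all probes 67.0% and 61.0%. In that pairing the second pair had 0 of 11 members above 0, with a median of -0.345, and the first had 7 of 11 above 0, with a median of 0.161. LDHA in its second probe then ran from -0.61 to 0.55 and its SD went from 0.131 to 0.483, while that of TPI1 went from 0.261 to 0.507. The median SD over the members went from 0.229 to 0.289, and that over all tested probes from 0.181 to 0.209. Of the members, 8 of 11 had a larger SD. PFKP, in contrast, was then below 0 in 4 of 4 pairs, and its SD went from 0.12 to 0.09. The intervals widened to between -0.57 and 0.68, or 0.674-fold to 1.60-fold, and LDHB had an adjusted p = 0.508 (limma). Of all tested probes 4 passed in that pairing, against 381 with the labelled numbers. Pearson correlations across probes, which are not independent replicates, describe the same arrays. Array 1 of those carrying 29.5 hpf in Cy5 had 0.04 with its labelled partner and 0.67 with array 2 of the opposite orientation. Array 2 had 0.05 with its labelled partner and 0.52 with array 1 of the opposite orientation. The labelled partners numbered 3 and 4 correlated at 0.62 and 0.72. In these data the labelled numbers 1 and 2 thus went with the less alike arrays, and the labels hold nothing further on the pairing. The replicate values, SDs and p-values given here rest on the labelled numbers unless the exchange is named.

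**Figure D2:**
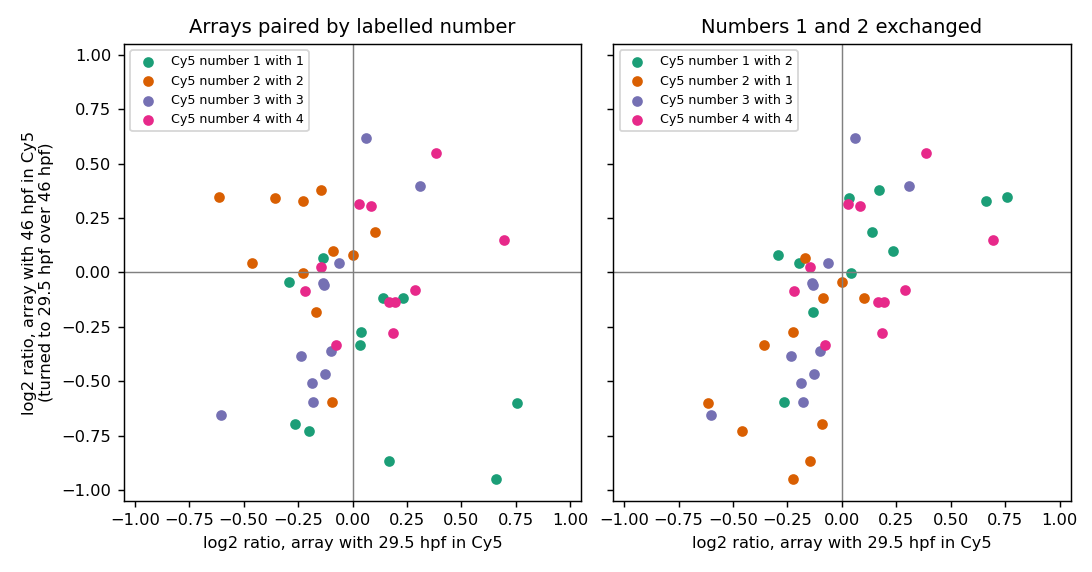
Each point is a glycolysis enzyme probe on 2 arrays of opposite dye, with the log2 ratio of 29.5 hpf over 46 hpf on the array with 29.5 hpf in Cy5 (x axis) and on the array with 46 hpf in Cy5 (y axis), coloured by pair. With the labelled numbers (left) 3 and 4 of the 11 points of pairs 1 and 2 have the same sign on both arrays, and with numbers 1 and 2 exchanged (right) 8 and 9 do.

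The other genes of the pathway were read in 6 lists, written with earlier results of these data known. No gene of the 6 lists passed, and with 1.15% of all probes called, counts of 0 in lists of 6 to 12 tested genes are near that background. Each gene was read by its tested probe of highest mean intensity. Of 12 tested isoenzymes and further steps of glycolysis, 0 passed in either direction, and their median log2 ratio was 0.02, from -0.24 to 0.19. HKDC1, a hexokinase relative, was at 0.14 ± 0.07 (SD, n = 4; limma adjusted p = 0.361), and PFKL, the liver-type phosphofructokinase, at 0.19 ± 0.33 (SD, n = 4; limma adjusted p = 0.576). ENO2, the neuronal enolase, had the lowest mean, -0.24 ± 0.34 (SD, n = 4; limma adjusted p = 0.499), and was at -0.07 without replicate 4. Its probe was above the negative control limit on 3 of 8 arrays at 29.5 hpf and 6 of 8 at 46 hpf, so it entered the test through the group where it was higher. Of 8 genes that set phosphofructokinase activity or run gluconeogenesis, 0 passed, with a median of 0.00. PFKFB2 and PFKFB3 make and remove the activator of phosphofructokinase. PFKFB2 was at -0.15 ± 0.20 (SD, n = 4), and at -0.06 without replicate 1. PFKFB3 was at -0.22 ± 0.44 (SD, n = 4), and at -0.01 without replicate 4. PCK2, the mitochondrial phosphoenolpyruvate carboxykinase, was at 0.09 ± 0.16 (SD, n = 4), and at 0.01 without replicate 4.

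Glucose and lactate transporters held the member of the 6 lists nearest to the threshold. SLC16A3, the monocarboxylate transporter MCT4 that exports lactate, gave 0.26, 0.41, 0.47 and 0.63, a mean of 0.44 ± 0.15 (SD, n = 4; limma adjusted p = 0.0729). It was above 0 on 8 of 8 arrays and in all 4 replicates, under the labelled and the exchanged numbers, where its adjusted p = 0.141 (limma). It passed in 4 of the 20 alternatives described at the end, all of which enter the arrays as 8 values. SLC2A3, the glucose transporter GLUT3, gave 0.36, 0.22, 0.32 and 1.24, a mean of 0.53 ± 0.47 (SD, n = 4; limma adjusted p = 0.242), of which replicate 4 was far the highest, and 0.30 without it. SLC2A1, the glucose transporter GLUT1, was at 0.10 ± 0.16 (SD, n = 4) in its brighter probe and at -0.10 ± 0.14 (SD, n = 4) in its other one. Of the 10 transporter genes tested 0 passed, and their median was 0.04.

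Pyruvate can leave glycolysis for the mitochondrion. Of 11 genes of that entry 0 passed, with a median of -0.01. MPC2, a subunit of the mitochondrial pyruvate carrier, was at -0.21 ± 0.09 (SD, n = 4; limma adjusted p = 0.206) and below 0 in all 4 labelled replicates, but on 5 of 8 arrays and in 3 of 4 pairs with exchanged numbers. PDP1, the phosphatase that activates pyruvate dehydrogenase, was at -0.22 ± 0.22 (SD, n = 4). PDK1, a kinase that inactivates it, was at -0.21 ± 0.22 (SD, n = 4) in its brightest probe, and its other 3 probes lay between -0.21 and 0.03. Of 9 genes of the shuttles that carry reducing equivalents of cytosolic NADH 0 passed, with a median of -0.04. SLC25A12, an aspartate and glutamate carrier, was at 0.33 ± 0.22 (SD, n = 4; limma adjusted p = 0.184), and GPD1, the cytosolic glycerol phosphate dehydrogenase, at 0.12 ± 0.14 (SD, n = 4). MDH1, the cytosolic malate dehydrogenase, was at -0.38 ± 0.39 (SD, n = 4; limma adjusted p = 0.319) in its brighter probe and at -0.19 without replicate 3, and its other probe was at 0.03 ± 0.30 (SD, n = 4).

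The pentose phosphate pathway branches off at glucose 6-phosphate and returns sugars to glycolysis. Of its 6 tested genes 0 passed, with a median of 0.00. TKT, transketolase, gave 0.39, 0.13, 0.40 and 0.74, a mean of 0.41 ± 0.25 (SD, n = 4; limma adjusted p = 0.144). TALDO1, transaldolase, gave -0.02, -0.47, -0.36 and -0.56 in its brightest probe, a mean of -0.35 ± 0.24 (SD, n = 4; limma adjusted p = 0.182), and 4 of its 5 tested probes were below 0. Both belong to the non-oxidative branch. With exchanged numbers TKT was at 0.69, -0.17, 0.40 and 0.74 (limma adjusted p = 0.419), above 0 in 3 of 4 pairs, while TALDO1 was below 0 in 4 of 4 (limma adjusted p = 0.194). RPE, the ribulose phosphate epimerase, was at -0.52 ± 0.59 (SD, n = 4; limma adjusted p = 0.344), with replicate 4 at -1.37 and a mean of -0.23 without it, and its dimmer probe was at 0.02.

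**Figure D3:**
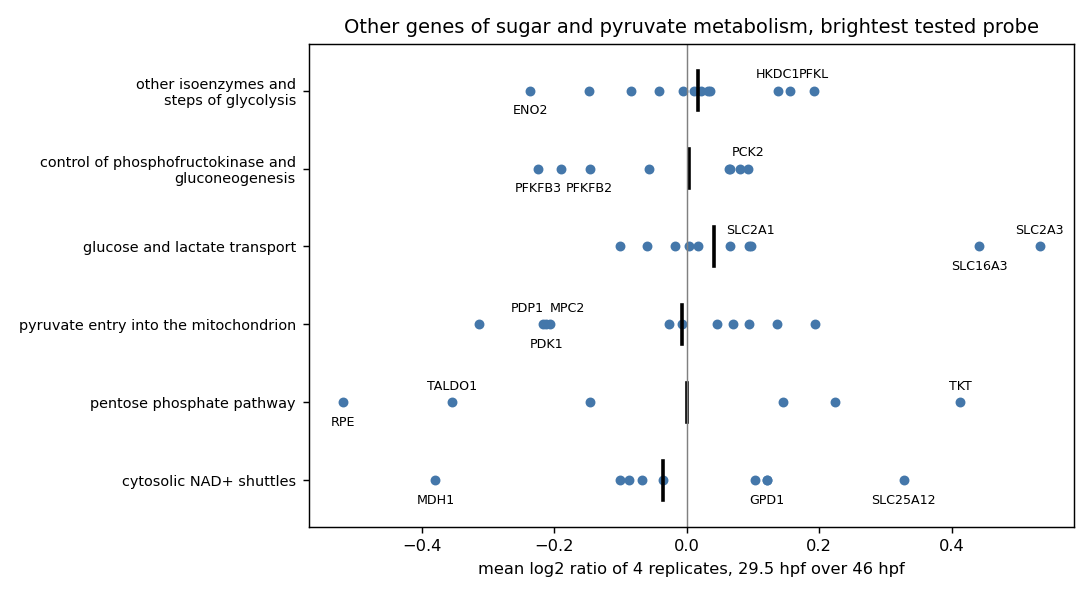
Mean log2 ratio of 29.5 hpf over 46 hpf over 4 replicates (x axis) of the other genes of sugar and pyruvate metabolism, by list (rows), each gene by its brightest tested probe. Vertical bars are list medians, which lie between -0.04 and 0.04, and the 3 genes of smallest p in each list are named.

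Testis isoenzymes of the pathway and marker genes describe what the samples held. LDHC, the testis lactate dehydrogenase, was above the negative control limit on 8 of 8 arrays in both groups, at -0.08 ± 0.45 (SD, n = 4), while PGK2 was above it on 2 of 8 arrays in each group and GAPDHS on 0 of 8. All 14 oocyte and early embryo markers, such as GDF9, ZAR1 and NLRP5, were above the limit in both groups on all arrays. Their median ratio was -0.03, and 1 of the 14 passed, NLRP2 at 0.61 ± 0.05 (SD, n = 4; limma adjusted p = 0.0335), beside 1.15% of all probes. With any 1 replicate left out, 0 of all tested probes passed (limma), NLRP2 included, although 4027 to 5245 had unadjusted p-values under 0.05. The lowest of these markers, PADI6 and BMP15, were at -0.52 ± 0.30 (SD, n = 4; limma adjusted p = 0.121) and -0.51 ± 0.42 (SD, n = 4; limma adjusted p = 0.217). Of 15 cumulus and granulosa cell markers 11 were tested, and 7 were above the limit in both groups on all arrays, STAR and HAS2 among them. The 11 tested markers had a median of -0.01, with 0 past the threshold. They ran from -0.29 for HAS2 (limma adjusted p = 0.219) to 0.67 for the brightest STAR probe (limma adjusted p = 0.112), whose other probes were at 0.16 and -0.02, and AMH, TNFAIP6, FOXL2 and HSD3B1 were too dim to test. Of 10 sperm and testis transcripts 3 were tested, with a median of -0.05 and 0 past the threshold. The part of cumulus cell RNA in the member values was not tested.

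The member results were also computed under 20 other settings, in which 0 of 217 member tests passed, the lowest adjusted p being 0.102 (limma), for LDHB with median centring in place of loess. With that centring 11 of 11 members were below 0, at a median of -0.311, while the median of all probes was -0.066. Genes outside the members also fell: SLC16A3 from 0.442 to 0.144, SLC25A12 from 0.328 to 0.017 and HKDC1 from 0.138 to -0.157. PFKP and ENO2, each with a single dim probe, went the other way, from -0.086 to -0.035 and from -0.236 to -0.159. So did the second GPI probe, from -0.033 to -0.017, while the tested ENO1 probe fell from 0.035 to -0.031. On each array, loess subtracts a curve over mean signal and median centring subtracts a constant. The shift of a probe between these settings is thus set by its signal on each array. Which setting is closer to the RNA content of the embryos was not tested. The authors' deposited values gave 10 of 11 members below 0 at a median of -0.205, against -0.049 over all probes. PGK1 and ENO1 were below 0 under both, and TPI1 under median centring. The mean of PGAM1 was -0.50 with median centring, and that of the second GPI probe was -0.48 in the authors' deposited values. The median of the members stood below that of all probes in the main setting and in each of the 20 others. These settings reuse the same arrays and probes, so they are not independent of each other. In labelled replicates 1 to 4 the member median was -0.145, -0.009, -0.23 and 0.028. Over all tested probes it was -0.001, -0.007, -0.005 and -0.003.

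**Figure D4:**
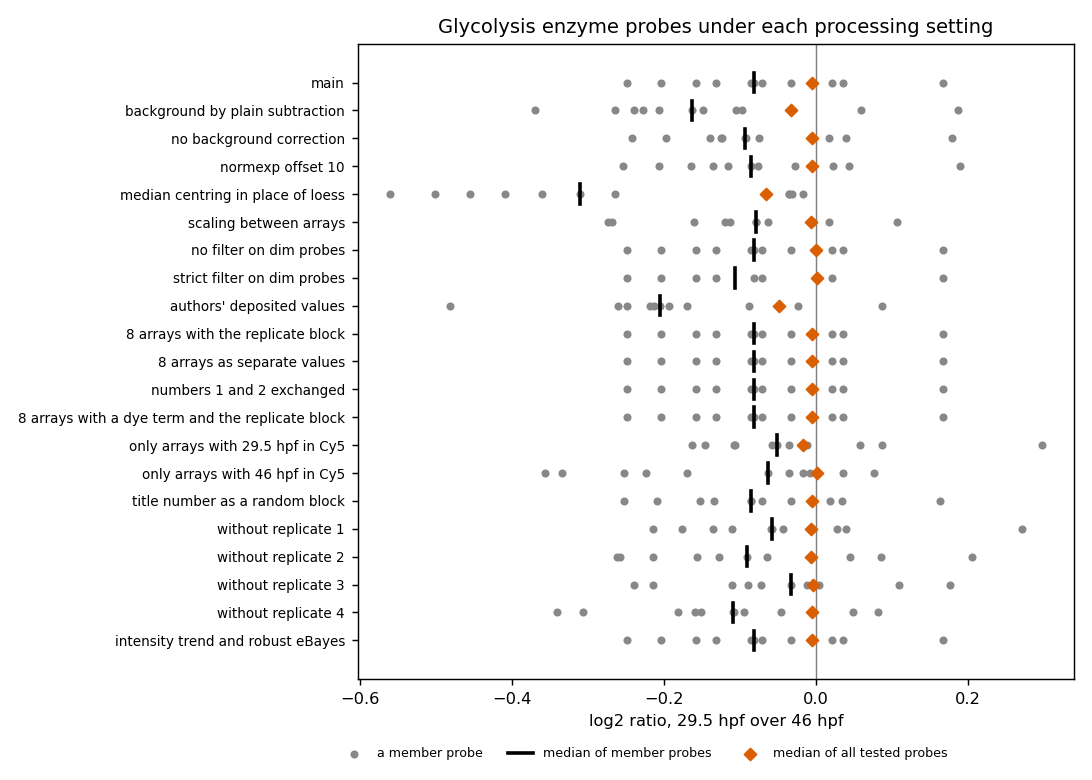
Log2 ratio of 29.5 hpf over 46 hpf (x axis) of the tested glycolysis enzyme probes (grey points), their median (black bar) and the median of all tested probes (orange diamond) under the main processing and 20 other settings (rows). The member median lies between -0.311 and -0.033, furthest below 0 with median centring and with the authors' deposited values.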

How the data were processed

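Per the file headers, the scanner files give each spot's mean intensity and its median background in Cy3 and Cy5, linear and without normalization. The deposited value table holds the authors' log2 ratios; no label or header states their normalization. Compared with ratios from the scanner files, its columns had slopes of 1.22 to 1.50 on arrays with 29.5 hpf in Cy5 and -1.39 to -1.08 on the rest, and so already ran as 29.5 hpf over 46 hpf, with medians from -0.0151 to 0.0120. It served as an alternative.

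limma 3.58.1 (R 4.3.3) was used with normexp (offset 50) and loess per array. The 1418 control spots and the spots ignored by the image software, 28 to 186 an array, had weight 0. Ratios of arrays carrying 46 hpf in Cy5 changed sign, and arrays with the same labelled number were averaged. A probe was tested if, on at least 4 of 8 arrays in 1 group, it exceeded the mean of the 153 negative controls by 2 SD and had at least 3 replicate values. Member probes that passed did so in both groups. The 4 values were tested against 0 (lmFit, eBayes, two-sided, Benjamini-Hochberg). Beyond the word biological in the series' design nothing describes separate cultures, so p-values measure the spread between these replicates.

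Symbols (21781 probes) came from the platform annotation, updated through the RefSeq table of ARS-UCD2.0. Named genes were all members and, per list, genes past the threshold and the 3 of smallest p. The members, lists and settings were chosen with earlier results of these data known. The test was tried on simulated data with independent replicates and with changes larger than the member ratios. That trial does not cover small ratios or the pairing of arrays. Across probes, the deviations of same-numbered arrays had correlations of -0.28, -0.19, 0.29 and 0.50 for numbers 1 to 4, so the check did not find that the numbers pair all arrays. The labelled numbers, which the series' design describes as dye-swapped replicates, were kept, and the exchange of 1 and 2 was an alternative. Alternatives covered background, normalization, filter, the authors' values, pairing, blocks, dye orientation, left-out replicates and the variance model.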

Additional observations from a re-analysis of the deposited data

Results flagged for a closer look

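Among 88 sets of 4 replicates or arrays, 8 had 1 value standing apart, where about 1 in 20 would by chance in independent normal sets. These sets overlap, since the replicate values average the same arrays, so the count was not tested against that rate. The gap of the far value to its nearest neighbour, as a share of the range, was 0.929 for the second GPI probe (replicate 4 at 0.20, the others from -0.12 to -0.10). It was also 0.929 for PGK1 on the arrays with 29.5 hpf in Cy5 (number 3 at 0.31, the others from -0.17 to -0.13). Among the other pathway genes it was 0.870 for ENO2 over replicates (replicate 4 at -0.75) and 0.884 on the arrays with 29.5 hpf in Cy5 (number 4 at -0.83). It was 0.881 for PCK2 (replicate 4 at 0.33), 0.864 for SLC2A3 (replicate 4 at 1.24), 0.931 for PDK1 (replicate 2 at -0.55) and 0.957 for MDH1 on the arrays with 29.5 hpf in Cy5 (number 3 at -0.57, the others from 0.06 to 0.09).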

How the results depend on the processing

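The count of member probes past the threshold was 0 under all 20 alternatives (limma), with 0 to 4 at an unadjusted p under 0.05. The member median was -0.311 with median centring, -0.205 with the authors' deposited values and between -0.109 and -0.033 when 1 replicate was left out. Among arrays whose titles start with the same number (140, 141 or 142) it was -0.154, 0.003 and -0.047. The cause of these shifts was not tested. All arrays of title 141 had 29.5 hpf in Cy5 and all of title 142 had 46 hpf in Cy5, while 140 held both. Title number and dye orientation thus cannot be told apart in these values. Within those titles, with no test, the sign differed from the overall mean for TPI1 (-0.172), PGK1 (-0.078), the first GPI probe (0.041), PFKL (-0.118), PCK2 (-0.001), SLC2A1 (-0.174) and GPD1 (-0.024) in 140, for PGAM1 (0.076), LDHB (0.003), the second LDHA probe (0.044) and PFKFB2 (0.011) in 141, and for the second GPI probe (0.082) and ALDOA (0.064) in 142. In the other alternatives, means that changed sign, none past the threshold, were those of ENO1 with plain subtraction (-0.227), median centring (-0.031), scaling between arrays (-0.004), the authors' values (-0.261) and only arrays with 46 hpf in Cy5 (-0.017), of PGK1 with median centring (-0.265), the authors' values (-0.024) and only arrays with 29.5 hpf in Cy5 (-0.035), of TPI1 with median centring (-0.036), and of the second LDHA probe with only arrays with 29.5 hpf in Cy5 (0.058). So did PFKL with plain subtraction (-0.056), the authors' values (-0.168) and only arrays with 29.5 hpf in Cy5 (-0.182), and HKDC1 (-0.157), PCK2 (-0.13) and SLC2A1 (-0.169) with median centring. With 1 replicate left out ALDOA ranged from -0.151 to 0.004, PGK1 from -0.09 to 0.086 and ENO1 from -0.108 to 0.176.

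The 381 calls over all probes became 209 with plain subtraction (135 higher, 74 lower, against 206 and 175), 616 with no background correction, 265 with an offset of 10, 863 with the strict filter, 51 with the authors' values (38 higher, 13 lower) and 39 with an intensity trend and robust eBayes. They became 1641 with the replicate block over 8 arrays, 1128 with a dye term as well, 2190 with 8 separate values, 2896 with the title number as a block and 4 with exchanged numbers. They became 0 (limma) with median centring, scaling between arrays, arrays of either dye orientation alone and each replicate left out, with between 3564 and 6517 probes having unadjusted p-values under 0.05. The replicate block gave SLC16A3 a limma adjusted p = 0.0113 (0.00390 to 0.482 over all settings) and TALDO1 a limma adjusted p = 0.0430 (0.0194 to 0.428 over all settings), and changed no call of a member. Dye calls went from 15 to 28 with the block.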
